A study of Homo sapiens with 22 samples.

Results

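The polyamine synthesis and control genes are the 10 genes ODC1, AMD1, SRM, SMS, OAZ1, OAZ2, AZIN1, SAT1, SMOX and PAOX, taken by name from 20136 protein-coding genes with an annotated transcription start site (TSS). They were followed through 16 lists of chromatin immunoprecipitation sequencing (ChIP-seq) peaks for N-MYC and WDR5 in neuroblastoma cells. A peak was given to a gene where its summit, the base of highest pileup, lay within 1 kb of any TSS of that gene. The strength of a peak is its fold enrichment over the local background that the peak caller estimates, written here as a percentile: the share of all peaks of the same library's list with an equal or lower fold.

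Polyamines (putrescine, spermidine and spermine) are small cations that bind nucleic acids and are needed for growth. ODC1, ornithine decarboxylase, makes putrescine from ornithine, and AMD1 makes the aminopropyl donor that SRM and SMS use to build spermidine and spermine. The antizymes OAZ1 and OAZ2 bind ODC1 and send it to the proteasome, the antizyme inhibitor AZIN1 counters them, and SAT1, PAOX and SMOX acetylate or oxidise polyamines on the way back. ODC1 is a textbook target of MYC family proteins, which bind the E-box CACGTG as heterodimers with MAX. WDR5 is a scaffold protein of histone methyltransferase complexes that also contacts MYC proteins.

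CHP-134 and IMR-32 are established human neuroblastoma cell lines, and the authors describe both as N-MYC amplified. CHP-134 cells were exposed for 4 h either to the solvent DMSO or to a compound, with 3 N-MYC and 3 WDR5 libraries in each group. The sample titles call the compound C38b, while the agent field calls it 419C91, so its identity is not settled here. IMR-32 cells carried no treatment and gave 2 N-MYC and 2 WDR5 libraries. CHP-134 libraries were sequenced as single reads on a NextSeq and IMR-32 libraries as paired reads on a NovaSeq, so the line and the sequencing run cannot be told apart. Each library pooled several immunoprecipitations of the same sample, and the lists carry no read counts, so the depth behind a fold is unknown.

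N-MYC lists held from 5242 to 15286 peaks in the DMSO and IMR-32 libraries, and WDR5 lists from 1258 to 4891. In the compound group, 3 lists stood apart by length. WDR5 replicates 2 and 3 held 15 and 401 peaks beside 5973 in replicate 1, and N-MYC replicate 2 held 2964 beside 11249 and 12313. Results that rest on these lists are given with and without them where they could be.

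The sequences at the ODC1 and SRM summits are shown first. By summits within 1 kb of a TSS, only these members had both proteins on the same interval in at least 2 DMSO libraries of CHP-134. Each gene carried an upstream site and a site inside the gene, named from the canonical transcript. The site inside each gene lay near the start of another transcript of that gene. WDR5 was in 2 DMSO libraries at the upstream ODC1 site and in 3 at the SRM intron 1 site. It was in 1 DMSO library at the ODC1 intron 1 site and in no list at the upstream SRM site. Sequences are from GRCh37, the build of the lists, 5′ to 3′ on the strand of the gene, and capitals mark CACGTG within 100 bp of the median N-MYC summit. Lines of 201 bases are centred on that summit, and the others are cut so that no more than 30 bases annotated as untranslated region are printed in a row. The upstream ODC1 site is chr2:10588892-10589092, the site in ODC1 intron 1 is chr2:10588111-10588215, and the upstream SRM site is chr1:11120229-11120429. The E-boxes in SRM intron 1 are shown in chr1:11119607-11119636 and chr1:11119517-11119546.
ODC1 upstream: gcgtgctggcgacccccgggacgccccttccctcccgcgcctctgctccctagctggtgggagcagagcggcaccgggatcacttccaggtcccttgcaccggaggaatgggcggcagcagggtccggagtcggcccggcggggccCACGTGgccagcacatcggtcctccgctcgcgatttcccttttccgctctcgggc
ODC1 intron 1: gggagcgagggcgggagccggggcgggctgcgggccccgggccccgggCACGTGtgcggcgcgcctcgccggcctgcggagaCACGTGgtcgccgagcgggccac
SRM upstream: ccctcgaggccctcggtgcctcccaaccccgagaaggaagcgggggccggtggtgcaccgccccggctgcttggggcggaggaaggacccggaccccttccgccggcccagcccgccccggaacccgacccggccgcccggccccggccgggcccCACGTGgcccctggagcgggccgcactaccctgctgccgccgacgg
SRM intron 1, nearer E-box: tgcgccccgctcCACGTGtcagccctcagg
SRM intron 1, farther E-box: gccgttcctcgcCACGTGtcaccatcgctc

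Both intronic sites held 2 E-boxes and both upstream sites 1. With 3 bases on each side, the upstream E-boxes read gccCACGTGgcc in ODC1 and cccCACGTGgcc in SRM, and those of SRM intron 1 read ctcCACGTGtca and cgcCACGTGtca. The E-boxes of ODC1 intron 1 read gggCACGTGtgc and agaCACGTGgtc. Among 13021 sites near any TSS with N-MYC in any list, 20.5% held CACGTG within 100 bp of the median N-MYC summit and 1.92% held 2 or more. The canonical E-box was searched as its 6 letters, which read the same on both strands. OAZ2 is shown for contrast, as a gene where WDR5 was listed without N-MYC at the same site. Its window, chr15:64995003-64995203 around the median WDR5 summit, held no CACGTG, and 1.61% of 1993 sites with WDR5 only did.
OAZ2: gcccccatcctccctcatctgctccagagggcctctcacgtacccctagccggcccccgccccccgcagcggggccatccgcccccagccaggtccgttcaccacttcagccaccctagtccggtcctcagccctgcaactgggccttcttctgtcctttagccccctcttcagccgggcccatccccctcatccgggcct

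In DMSO-treated CHP-134 cells, N-MYC was at 6 of the 10 genes and in all 3 libraries of each: ODC1, AMD1, SRM, SMS, OAZ1 and AZIN1. All 4 genes of synthesis were among them. Over all genes, 38.7% had an N-MYC peak in at least 2 of these libraries and 27.3% in every library. WDR5 was at ODC1, SRM and SMOX in at least 2 libraries, against 8.53% of all genes, and at SRM and SMOX in every library, against 3.99%. ODC1 and SRM were the members with overlapping N-MYC and WDR5 intervals, which 7.17% of all genes had. AZIN1 joined them when the distance was 2 kb, or when the nearest edge or the middle of the peak replaced the summit. SMOX was the member with WDR5 in at least 2 libraries and N-MYC in none, a combination held by 0.293% of all genes. AMD1, SMS and OAZ1 had N-MYC and no WDR5 peak in any of the 3 libraries, as had 20.3% of all genes. SAT1 and PAOX had no peak of either protein in any of the 16 lists, the state of 44.8% of all genes.

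**Figure D1:**
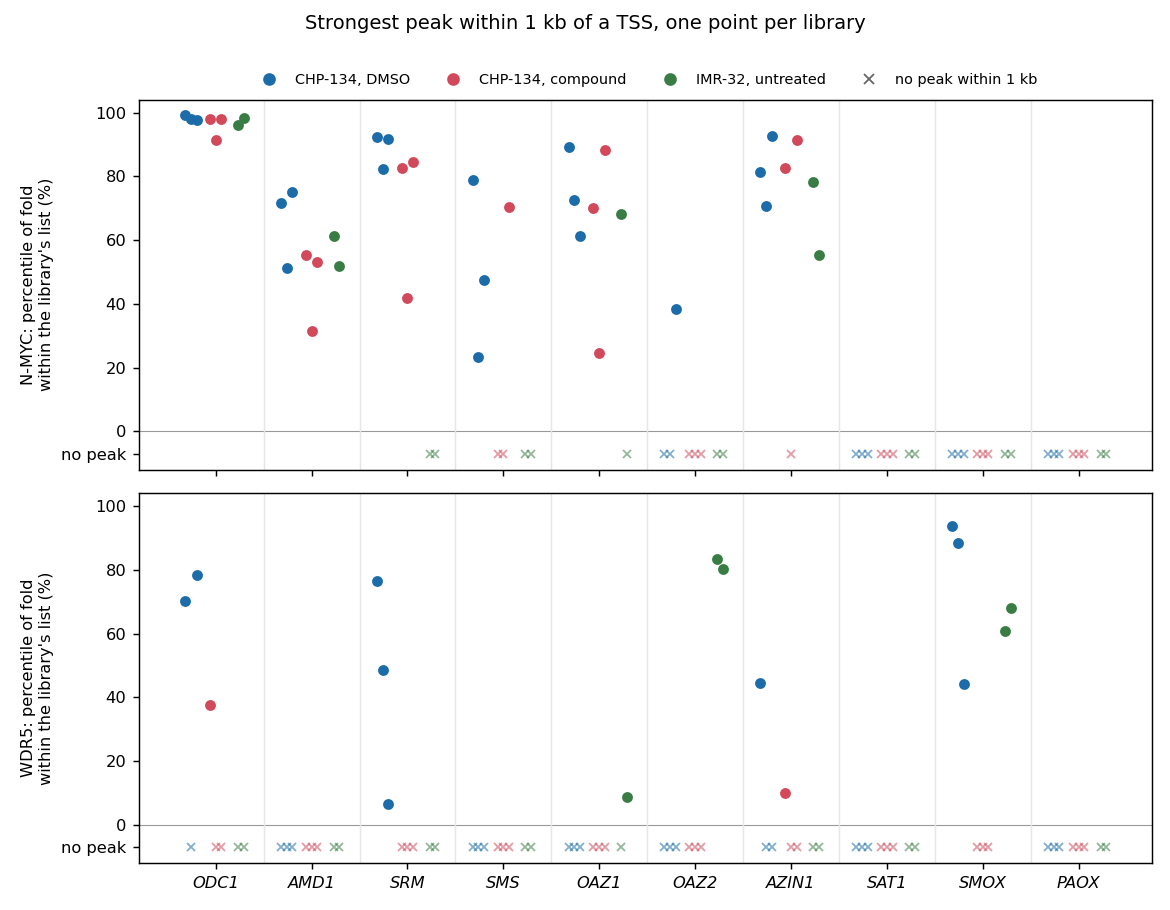
The percentile of fold (in %) of the strongest peak within 1 kb of a TSS, for N-MYC (upper panel) and WDR5 (lower panel), with 1 point per library and colours for the 3 groups. Crosses mark libraries with no peak. ODC1 stays above 91 in all 8 N-MYC lists, while SAT1 and PAOX show crosses throughout.

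ODC1 was the most strongly enriched of the 10 genes for N-MYC. Its strongest peak lay at percentiles 99.4, 98.1 and 97.8 in the DMSO libraries, that is at ranks 86, 173 and 272 from the top of its lists. The mean was 98.5 ± 0.87 (SD, n = 3), and 98.8% of the 7783 genes with N-MYC in at least 2 libraries had an equal or lower mean. The gene lies at chr2:10580094-10588453 on the minus strand. Its peaks formed an upstream site, with a median summit at -557 bp from the canonical TSS, and a site in intron 1, with a median summit at 333 bp. In DMSO the N-MYC summits of the intronic site lay -9, 32 and 1 bp from the nearest start of other ODC1 transcripts. The upstream site stood at 98.5, 88.6 and 97.8, and the intronic site at 99.4, 98.1 and 92.6, so the order of the sites differed between replicates. The TSS of the divergent long non-coding RNA ODC1-DT lies 99 bp from the upstream site, and a peak there cannot be given to either transcript alone. WDR5 was listed upstream at 70.1 in replicate 1 and 78.5 in replicate 3, and in the intron at 68.2 in replicate 1. The mean N-MYC and WDR5 summits lay 19.2 bp apart upstream and 39.3 bp apart in the intron, beside a median of 98 bp over the 3201 sites with both proteins in these libraries.

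AMD1, S-adenosylmethionine decarboxylase, had 3 N-MYC sites and no WDR5 peak in any list. The site in every N-MYC list lay in intron 1, with a median summit 1598 bp after the canonical TSS and within 1 kb of the start of a shorter transcript. It stood at percentiles 71.6, 51.2 and 75.2 in DMSO, a mean of 66.0 ± 12.9 (SD, n = 3) that 64.6% of bound genes did not exceed. No CACGTG lay within 100 bp of its median summit, and 1 lay 120 bp away. The weaker sites, at 692 bp and -674 bp from the TSS, had summits in 2 and 1 of the DMSO lists. In DMSO replicate 1 a single peak of 2755 bp with 1 summit spanned all 3 sites. The weaker sites thus had no summit of their own there, though the interval covered them.

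SRM, spermidine synthase, ranked next to ODC1. Its strongest N-MYC peak, in intron 1 with a site median 465 bp after the TSS, stood at 92.5, 82.3 and 91.9 (mean 88.9 ± 5.72, SD, n = 3), and 89.5% of bound genes had an equal or lower mean. In DMSO the N-MYC summits of that intronic site lay 201, 183 and 124 bp after the nearest start of other SRM transcripts. The upstream site, at -254 bp from the TSS, stood at 84.8, 67.6 and 75.0. No list held WDR5 at the upstream site. WDR5 was in the intron in all 3 libraries, at 76.4, 48.5 and 6.52, so it was present throughout but near the bottom of the list in replicate 3. Its mean summit lay 23.3 bp from that of N-MYC. SMS, spermine synthase, had the lowest mean of the 6 genes, with N-MYC at 79.0, 23.4 and 47.5 at a site 13 bp after the TSS, in the untranslated part of exon 1. The 3 values spread widely, and no CACGTG lay within 250 bp of that summit.

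Of the genes that control ODC1 protein, OAZ1 and AZIN1 had N-MYC in all 3 DMSO libraries and OAZ2 did not. OAZ1 had N-MYC at -75 bp from its TSS, at percentiles of 89.3, 72.7 and 61.4, and a weaker peak in intron 1 at 31.2, 22.4 and 4.25, with no CACGTG within 250 bp of either. The start of JSRP1, a neighbouring gene on the other strand, lies 37 bp from the first of these sites, so the peak belongs to a shared start region. OAZ2 had N-MYC in 1 DMSO library, at 38.4, and no WDR5 in CHP-134. AZIN1 had an upstream site, at -586 bp from the TSS, with percentiles of 77.3, 70.6 and 92.8, and a site in intron 1 at 81.5, 8.98 and 81.0. The upstream site held 1 CACGTG, 40 bp from the median summit. The start of the long non-coding RNA MAILR lies 291 bp from it. WDR5 was given to AZIN1 in DMSO replicate 1, and in replicate 3 its summit lay 1030 bp from the nearest TSS, just outside the limit of 1 kb. The members' peaks just inside that limit were N-MYC summits at AZIN1 (956 bp) and AMD1 (950 bp). At AZIN1 in DMSO, the mean N-MYC and WDR5 summits lay 58.7 bp apart upstream and 193 bp apart in the intron. WDR5 came from 1 library upstream and 2 in the intron, and the median over all sites with both proteins was 98 bp.

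Among the genes of breakdown, only SMOX, spermine oxidase, had a peak. WDR5 was listed there in all 3 DMSO libraries at 93.9, 88.3 and 44.2, and in both IMR-32 libraries at 60.8 and 68.1. The site lay in intron 1, from 700 to 800 bp after the start of a shorter transcript, so it falls away when the canonical start alone is used. The nearest N-MYC summit of any list was 35.6 kb from a TSS of SMOX. PAOX, the oxidase of acetylated polyamines, had its nearest N-MYC summit at 3.18 kb, and SAT1, the acetyltransferase of spermidine and spermine, at 39.95 kb.

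**Figure D2:**
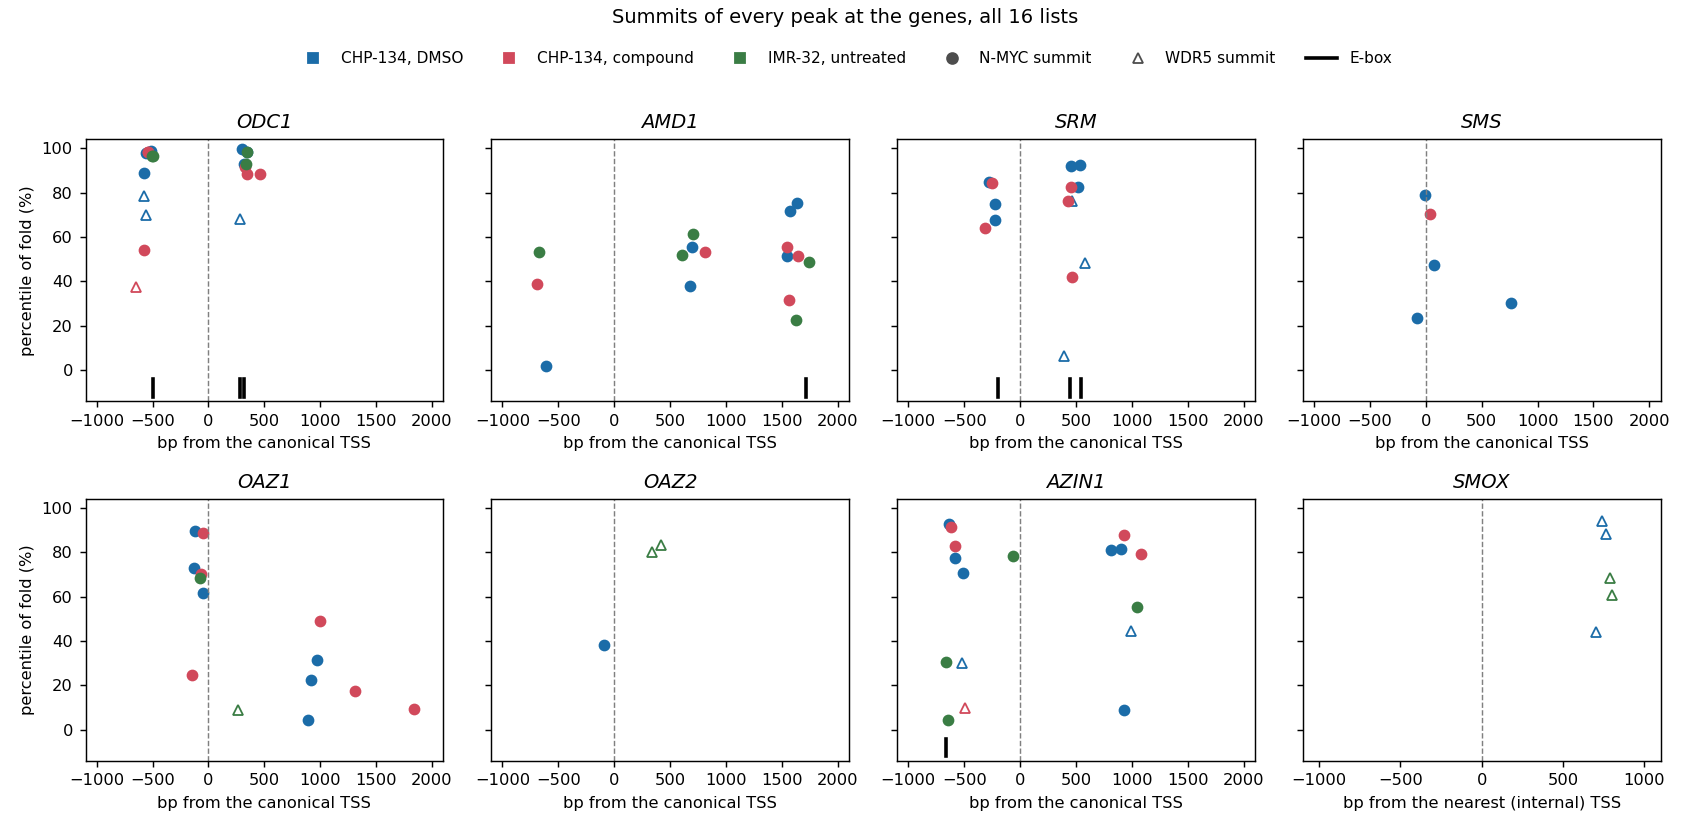
Position of every summit (bp from the canonical TSS, or for SMOX from its nearest, internal TSS) against the percentile of its peak (in %), for the 8 genes with a peak, with filled circles for N-MYC, open triangles for WDR5, colours for the 3 groups and black ticks for CACGTG within 250 bp of a site's median summit. In ODC1 and SRM the summits form an upstream and an intronic cluster, each above or beside an E-box, and SMOX holds triangles only.

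A pair of separate N-MYC peaks was frequent at these genes. In DMSO, 5 of the 6 genes with N-MYC (ODC1, AMD1, SRM, OAZ1 and AZIN1) had 2 or more peaks in at least 2 libraries, against 10.8% of the 7783 genes with N-MYC. The same held for 5 of 5 in the compound group (8.54% of all bound genes) and 3 of 3 in IMR-32 (5.76%), where the genes were ODC1, AMD1 and AZIN1. The number of annotated starts widens the window that is searched, with a median of 6.5 starts in the 6 members and 8 in all bound genes. Counted around the canonical TSS alone, 4 of 6 members had 2 or more peaks in DMSO (3.78% of bound genes), 2 of 5 in the compound group (2.86%) and 1 of 3, ODC1, in IMR-32 (1.79%). Without compound replicate 1 or 3 the count of 5 in the compound group was 1.

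Of 17 member sites with N-MYC in any list, 5 held CACGTG within 100 bp of the median summit (20.5% of all such sites), and these were the pairs of ODC1 and SRM and the upstream site of AZIN1. Taking each gene's strongest peak in any DMSO library, 4 of 7 genes with N-MYC had an E-box there (27.3% of 9986 genes), which were ODC1, SRM, AZIN1 and AMD1. In a majority of the libraries only ODC1 and SRM did, and the share of all genes by that stricter rule is not given here. In single libraries, 23.4% to 44.3% of the genes with N-MYC had an E-box at the strongest summit, and 1.57% to 2.45% had one at a point 2 kb away. The median of the mean percentiles was 78.0 over the 6 members with N-MYC and 55.6 over all 7783 genes. For WDR5 it was 74.3 over 3 members and 56.4 over 1717 genes.

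Binding with the compound was compared with binding in DMSO within CHP-134. N-MYC stayed listed at ODC1, AMD1, SRM and OAZ1 in all 3 compound libraries and at AZIN1 in 2. SMS was in replicate 3 alone, at 70.4. Of the 5493 genes with N-MYC in every DMSO library, 2157 also stayed in all 3 compound libraries. Over all genes, bound in DMSO or not, 10.9% were in every compound library. None of the 6 genes was missing from all 3 compound libraries, as 1.89% of the 5493 genes with N-MYC in every DMSO library were. At least 2 compound libraries listed N-MYC at 5 of the 10 genes and at 30.7% of all genes. The short list of replicate 2 lacked SMS and AZIN1, and of all genes with N-MYC in every DMSO library it held 40.2%.

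ODC1 stood at 98.1, 91.4 and 98.1 in the compound libraries, a difference in mean of -2.59 percentile points from DMSO (exact two-sided permutation test, n = 3 and 3, p = 0.4). AMD1 stood at 55.3, 31.5 and 53.0 (difference -19.4, exact permutation p = 0.3). SRM stood at 82.6, 41.8 and 84.5 (difference -19.3, exact permutation p = 0.3). OAZ1 stood at 70.2, 24.7 and 88.4 (difference -13.4, exact permutation p = 0.6). The groups overlapped at ODC1, AMD1, SRM and OAZ1, and 6.63% of the 2157 genes tested were lower without overlap. With 3 against 3 the smallest possible p is 0.1, and each of these adjusted p-values (Benjamini-Hochberg over 2157 genes, exact permutation test) was 0.935. The median difference was -16.3 over the 4 members and -9.93 over all 2157 genes. No gene was higher without overlap (0% of 2157). These differences leaned on the short list of compound replicate 2. Without it the difference was -0.36 at ODC1, -11.8 at AMD1, -5.34 at SRM and 4.83 at OAZ1, where the direction turned, and the groups again overlapped at all 4.

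Same-numbered DMSO and compound libraries deviated together, and within each number AMD1 differed by -16.3, -19.7 and -22.2 and SRM by -9.87, -40.5 and -7.41. AMD1 and SRM were thus lower in 3 of 3 pairs (exact sign-flip test, n = 3 pairs, p = 0.25, the smallest possible), as were 35.8% of all genes tested (1.25% were higher in 3 of 3). ODC1 was lower in 2 of 3 pairs and OAZ1 in 2 of 3. Counted from the top of the list, SRM ranked 1146, 1616 and 998 in DMSO and 1954, 1726 and 1913 with the compound. These ranks did not overlap (exact permutation p = 0.1), and 1.48% of the 2157 genes were weaker and 1.76% stronger in that way. Written as percentiles among the strongest 2964 peaks of each list, the same SRM ranks differed by -20.6 (exact permutation p = 0.1). That measure rescales the ranks and is no second test. By it, 2.76% of 833 genes were lower and 0.960% higher without overlap. The strongest SRM summit was in the intron in all 3 DMSO libraries and upstream in compound replicate 3. The summit positions of ODC1, AMD1, SRM and OAZ1 overlapped between the groups, while 5.47% of genes tested lay lower and 4.64% higher without overlap.

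At single sites, 5 could be compared. The intronic site of ODC1 stood at 99.4, 98.1 and 92.6 in DMSO and at 88.3, 91.4 and 88.5 with the compound, so the groups did not overlap. The difference was -7.34 (exact permutation test, p = 0.1, adjusted p = 0.942 over 1705 sites), and 6.74% of the sites tested were lower without overlap. The median difference over those sites was -9.78. Counted from the top, the intronic ODC1 peaks ranked 86, 173 and 905 in DMSO and 1321, 256 and 1414 with the compound. These ranks overlapped. The upstream ODC1 site stood at 98.1, 54.2 and 98.1 with the compound and overlapped with DMSO, and the value of 54.2 comes from the short list of replicate 2. By percentile, the intronic ODC1 site was apart without that replicate as well. Within replicate numbers, the sites in intron 1 of ODC1, AMD1 and SRM were lower with the compound in 3 of 3 pairs (exact sign-flip test, p = 0.25, the smallest possible), as were 35.4% of the 1705 sites. Without replicate 2 of DMSO, the sites in AMD1 and SRM intron 1 no longer overlapped either. Without compound replicate 1, the SRM site did not. No share over all sites is given for these reduced sets, where fewer libraries make non-overlap easier.

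**Figure D3:**
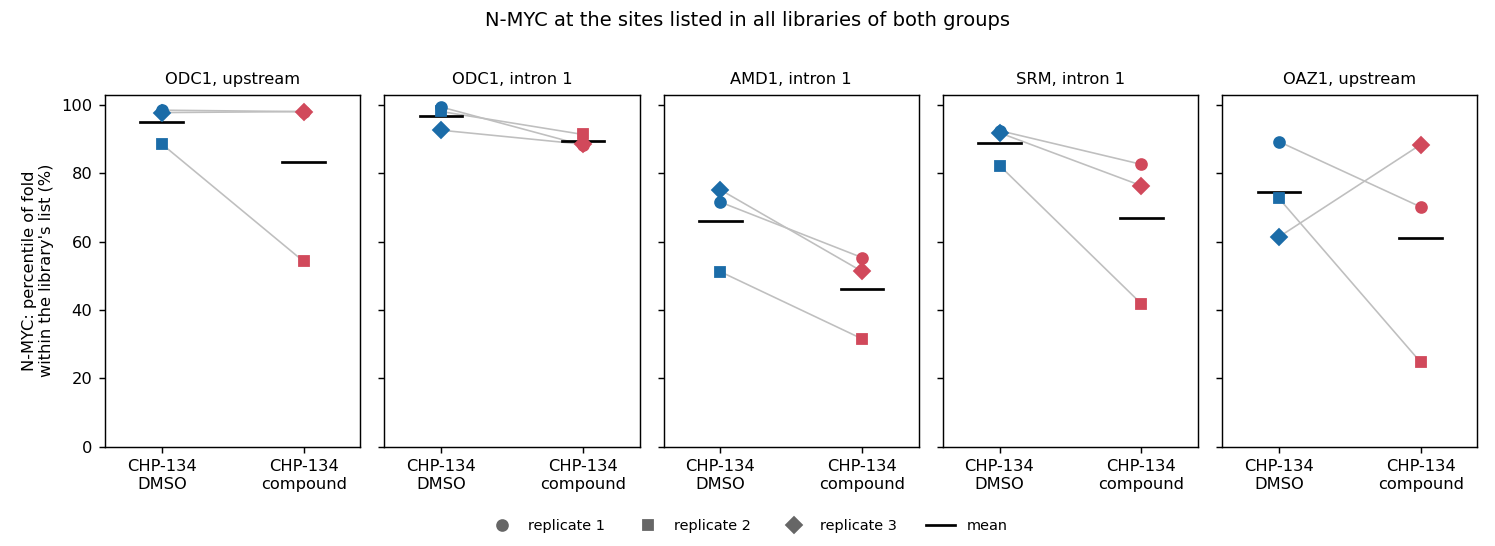
N-MYC percentile of fold (in %) at the 5 sites of these genes listed in all 3 DMSO and all 3 compound libraries of CHP-134. Each symbol is a library, grey lines join libraries of the same replicate number and black bars are group means. The ODC1 intron is the panel without overlap, from 92.6 to 99.4 in DMSO and from 88.3 to 91.4 with the compound. Counted as ranks from the top of the list, its groups overlapped.

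WDR5 could not be tested under the compound at any of the 10 genes, because lists of 15 and 401 peaks left 17 genes with WDR5 in all 6 libraries. Compound replicate 1, the longest WDR5 list, had WDR5 upstream of ODC1 at 37.7 and upstream of AZIN1 at 9.81. The DMSO values at those sites were 70.1 and 78.5 for ODC1 and 29.8 for AZIN1. SRM and SMOX, in all 3 DMSO lists, were in no compound list, as were 39.1% of the 803 genes with WDR5 in every DMSO library. Of the 3 members with WDR5 in at least 2 DMSO libraries, 1 was in compound replicate 1, and of all 1717 such genes 53.6% were. At least 2 compound libraries listed WDR5 at none of the 10 genes and at 1.34% of all genes, or 1.08% with overlapping N-MYC. The part of list length in these missing peaks was not tested.

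IMR-32 was compared with DMSO-treated CHP-134. N-MYC was at ODC1, AMD1 and AZIN1 in both IMR-32 libraries, against 15.9% of all genes. ODC1, AMD1 and AZIN1 had N-MYC in both IMR-32 libraries and WDR5 in none, a combination held by 11.3% of all genes. OAZ1 was in replicate 1 for N-MYC, at 68.2, and in replicate 3 for WDR5, at 8.66. No member had N-MYC in both IMR-32 libraries and in no DMSO library, which held for 1.72% of 3194 genes. SRM and SMS, listed in every CHP-134 DMSO library, were in neither, as were 24.0% of the 5493 genes with N-MYC in every DMSO library. WDR5 was at OAZ2 and SMOX in both libraries, against 4.86% of all genes, and neither gene had N-MYC in IMR-32 (1.23% of all genes). No member had overlapping intervals of both proteins, which 2.28% of all genes had. OAZ2, at 83.4 and 80.1, was a WDR5 gene in IMR-32 and in no CHP-134 library. The same held for 12.2% of the 979 genes with WDR5 in both IMR-32 libraries. SRM had WDR5 in every DMSO library and in no IMR-32 library, as had 24.9% of 803 genes.

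ODC1 stood at 96.3 and 98.2 in IMR-32, and the difference from CHP-134 was -1.20 percentile points (exact two-sided permutation test, n = 3 and 2, p = 0.5). It was near the top of the N-MYC lists in both lines. AMD1 stood at 61.3 and 51.8 (difference -9.50, exact permutation p = 0.5) and AZIN1 at 78.4 and 55.4 (difference -14.7, exact permutation p = 0.4). Among equal numbers of strongest peaks the direction turned, to 20.5 at AMD1 (exact permutation p = 0.3) and 1.33 at AZIN1 (exact permutation p = 1). SMOX, for WDR5, differed by -11.0 (exact permutation p = 0.6). ODC1, AMD1 and AZIN1 for N-MYC and SMOX for WDR5 overlapped between the lines. Of the genes tested, 25.0% were lower and 6.93% higher in IMR-32 without overlap for N-MYC, and 23.1% and 8.80% for WDR5. The smallest possible p is 0.1.

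Single sites were compared next. The upstream site of AZIN1 stood at 77.3, 70.6 and 92.8 in CHP-134 and at 30.7 and 4.31 in IMR-32, without overlap (difference -62.7, exact permutation test, p = 0.1, adjusted p = 0.510 over 2171 sites). The site in AMD1 intron 1 stood at 48.8 and 22.8 in IMR-32 and was also lower without overlap (difference -30.2, exact permutation p = 0.2), like 23.7% of the sites tested. Counted from the top, that AMD1 site ranked 4343, 4452 and 3046 in CHP-134 and 4246 and 4049 in IMR-32. These ranks overlapped. The upstream AZIN1 site ranked 3466, 2684 and 886 in CHP-134 and 5745 and 5017 in IMR-32, without overlap. Both ODC1 sites and the intronic AZIN1 site overlapped between the lines. In IMR-32 the strongest AZIN1 peak was at -65 bp from the TSS in replicate 1, at a position with no CHP-134 summit, and in intron 1 in replicate 2. The strongest AMD1 summit lay in the nearer intronic site in both IMR-32 libraries and in the farther one in all 3 DMSO libraries. Measured from the nearest TSS, the mean difference was -929 bp (exact permutation p = 0.1), and 12.7% of 2755 genes had summits lower without overlap. Taking the peak nearest to a TSS instead, the AMD1 positions overlapped. The WDR5 summit at SMOX lay at 742, 762 and 700 bp in CHP-134 and at 800 and 792 bp in IMR-32, a difference of 61.3 bp without overlap (exact permutation p = 0.2) that 17.2% of 523 genes showed in the same direction.

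**Figure D4:**
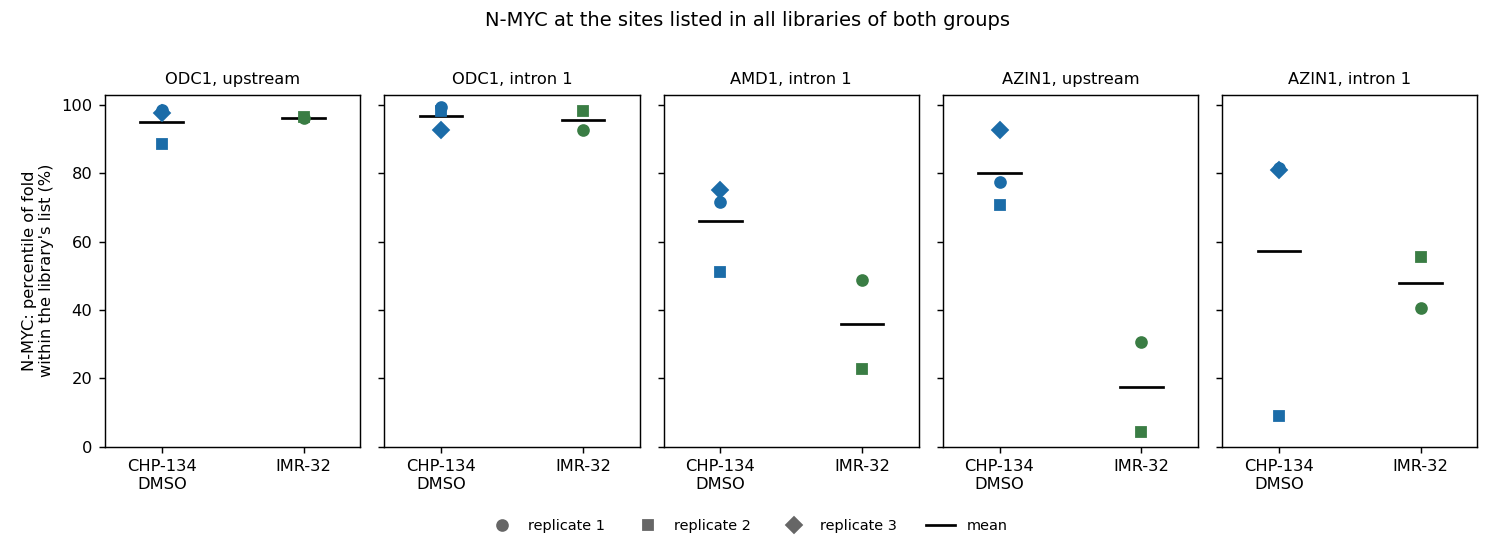
N-MYC percentile of fold (in %) at the 5 sites of these genes listed in all 3 CHP-134 DMSO and both IMR-32 libraries. Symbols are libraries and black bars are group means. Both ODC1 sites stay above 88 in each line, while the upstream AZIN1 site goes from 70.6 and above in CHP-134 to 30.7 and 4.31 in IMR-32.

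The list was widened to 25 further genes of precursor supply, methylthioadenosine salvage, transport across membranes and the use of spermidine to make hypusine. Hypusine is the modified lysine of the translation factor EIF5A. The list also held OAZ3, AZIN2 and SAT2, paralogs of members. N-MYC was at 16 of them in at least 2 DMSO libraries (38.7% of all genes), 15 in the compound group (30.7%) and 11 in IMR-32 (15.9%). WDR5 was at 3 in DMSO (8.53% of all genes), which were ENOPH1, EIF5A2 and SLC3A2, all with overlapping N-MYC. It was at none with the compound (1.34%) and at OAZ3 in IMR-32 (4.86%). The highest mean N-MYC percentiles in DMSO were those of SLC3A2, an amino acid transporter subunit, at 98.8 ± 0.913 (SD, n = 3), and ENOPH1, a methionine salvage enzyme, at 98.6 ± 1.01 (SD, n = 3). EIF5A stood at 97.8 ± 1.15 (SD, n = 3) and MAT2A, which makes S-adenosylmethionine, at 97.0 ± 4.43 (SD, n = 3). All 4 had N-MYC in every library of each group. The highest mean WDR5 percentiles in DMSO were 83.1 at ATP13A4 and 73.3 at ADI1, each from 1 library. In that library, replicate 1, ENOPH1 stood at 87.5, EIF5A2 at 82.4 and SLC3A2 at 73.9. ARG1, ARG2, AGMAT, MAT1A, AZIN2, SAT2 and ATP13A2 had no peak of either protein in any list. Among these, ARG1, ARG2 and AGMAT act in the supply of ornithine and putrescine, and AZIN2 and SAT2 are paralogs of members.

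**Figure D5:**
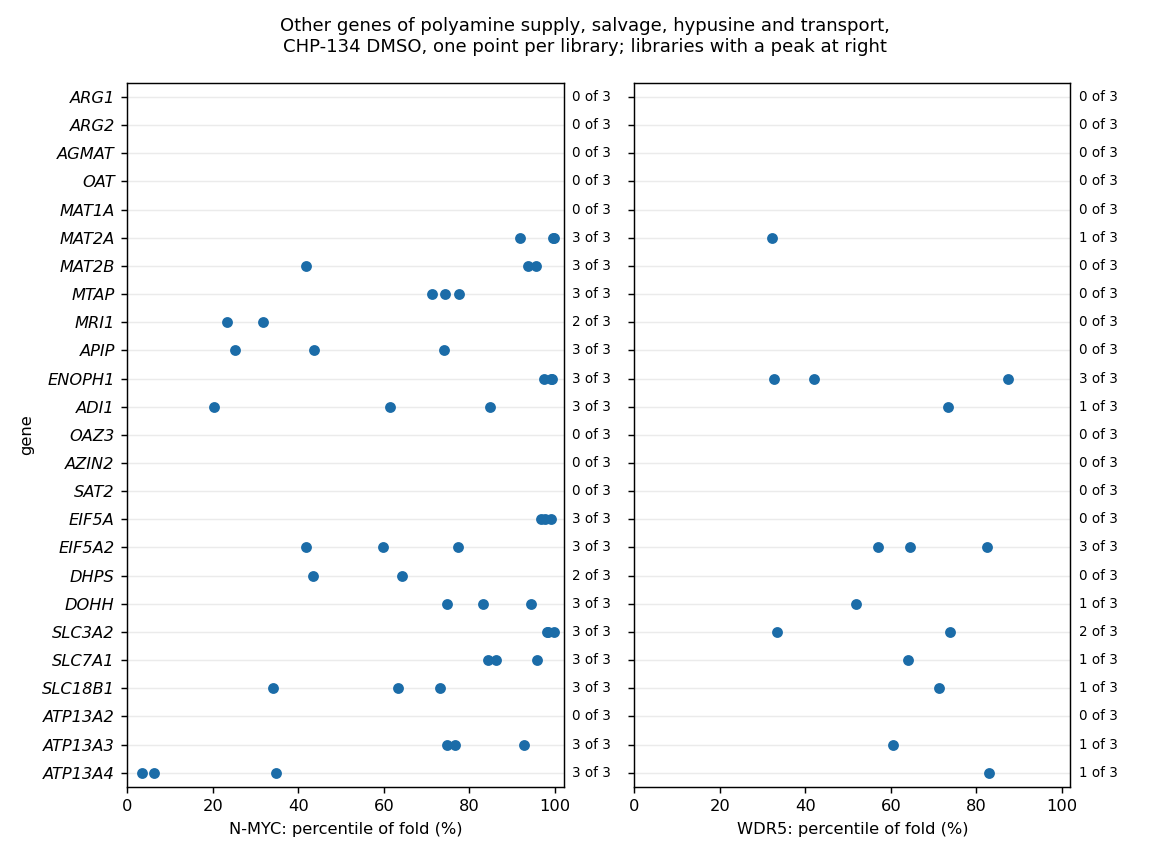
Percentile of fold (in %) of the strongest N-MYC (left) and WDR5 (right) peak within 1 kb of a TSS at the 25 further genes in CHP-134 DMSO, with 1 point per library and the number of libraries with a peak at the right of each panel. MAT2A, ENOPH1, EIF5A and SLC3A2 hold N-MYC points near the right edge, and the arginase genes hold none.

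ODC1 had a peak in 11 lists, the 8 of N-MYC and 3 of WDR5. Across those lists, 272 other genes had a peak in every one without sharing the peak of ODC1. The genes whose percentiles differed least from those of ODC1 were ZNF292, with a mean absolute difference of 5.00 percentile points, NCL, which encodes nucleolin, with 5.20, and SEH1L, a nuclear pore component, with 5.54. This likeness is a description over lists that share cells and antibodies.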

How the data were processed

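ChIP-seq peak lists for N-MYC and WDR5 were used as deposited. The authors aligned reads to hg19 with Bowtie2, used MACS2 (q-value limit 0.05) for each library, and deposited the fold enrichment ratio, the −log10 q-value and the summit of each peak, without read counts. Control immunoprecipitations with IgG were not analysed here. Summits were assigned to TSSs of GENCODE 44 lifted to GRCh37, and the strongest peak within 1 kb stood for a gene. Fold was ranked within its own list, since folds of unequal libraries do not share a scale. At least 2 libraries had to list a peak for a gene to count as bound. Groups were compared by exact permutation tests over libraries, and called different where they did not overlap. Summits of all lists within 250 bp of each other formed a site, a choice made after the data were seen. Nothing in the sources ties libraries to separate cultures beyond independent repeats of the ChIP-seq, so p-values measure the spread between these libraries. The replicate numbers pair DMSO with compound: deviations from the group means over 2157 genes correlated at 0.595, 0.532 and 0.585 between N-MYC libraries of the same number.

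All 10 members were named. From the wider list, the 4 genes with the highest mean N-MYC percentile, the 2 with the highest mean WDR5 percentile and those without any peak were named, and for ODC1 the 3 most similar genes. Members, lists and tests were chosen with earlier results of these data known. Python 3.11.15 with numpy 2.4.6 was used, and the functions were tested on simulated lists. Alternatives covered the distance, the start sites, the q-value, the ranking, the pairing and each library left out. The sequence at the SMOX site is not reported here.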

Additional observations from a re-analysis of the deposited data

How the results depend on the processing

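Of the counts and medians recomputed under each alternative, 178 stayed within 1.5 times the reported count, or within 1 SD for a median, and 41 moved. Within 500 bp of a TSS, WDR5 was at 1 member in DMSO (SRM), both proteins at 1 (SRM), N-MYC at 3 in the compound group and WDR5 at 1 in IMR-32 (OAZ2). Within 2 kb, or by the nearest edge or the middle of the peak, both proteins were at 3 in DMSO (ODC1, SRM and AZIN1), which counts as stayed. With every library required, both proteins were at 1 in DMSO (SRM), and with 1 library enough, WDR5 and both proteins were each at 2 in the compound group (ODC1 and AZIN1). With the canonical transcript only, WDR5 was at 1 in IMR-32 (OAZ2), and 2 or more N-MYC peaks were at 2 members with the compound and 1 in IMR-32. At a −log10 q of at least 5, the median WDR5 percentile of members was 56.2 in DMSO and 65.2 in IMR-32. An E-box in a majority of libraries was held by 2 members, with no share over all genes given by that rule.

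For N-MYC under the compound, 1 member (SRM) was apart by rank. It was apart among equal numbers of strongest peaks too, a measure that rescales the same ranks. Between the lines, 2 members were apart by −log10 q (ODC1 and AZIN1). With unlisted libraries set to 0, 2 were apart for N-MYC (SRM and SMS) and 2 for WDR5 (SRM and OAZ2). Each was listed in every library of 1 line and none of the other, so those calls were fixed by the listing. The summit nearest to a TSS gave 0 apart. With the replicate block, 2 members were lower with the compound in every pair (AMD1 and SRM) and 1 had a shifted summit (SRM). Between the lines, which share only numbers, the block gave 1 for percentile (AZIN1) and 2 for summit (ODC1 and AMD1). Shares over all genes are not given here for −log10 q, for unlisted libraries set to 0, or for summits and lines in the block. These counts are therefore not read as particular to the members. In the main test between the lines, 25.0% of genes were lower and 6.93% higher without overlap for N-MYC, and 23.1% and 8.80% for WDR5. The cause of these moves was not tested.

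Among differences at single genes, 12 changed sign, none with groups apart. Counted in ranks, where a positive value is a stronger peak in the second group, OAZ1 differed by 618 with the compound, and AMD1 by 1077 and AZIN1 by 69.8 in IMR-32. The same AMD1 and AZIN1 ranks, rescaled to percentiles among equal numbers of strongest peaks, differed by 20.5 and 1.33 percentile points in IMR-32. They are no separate result, though they were counted again among the 12. Leaving out 1 library, OAZ1 differed with the compound by -27.0 to 4.83 (without compound replicate 3 and 2). Its summit differed by -6.67 to 39.3 bp (without compound replicate 3 and 2), and by -4 bp without DMSO replicate 2. The ODC1 summit differed in IMR-32 by 12.5 bp for the peak nearest to a TSS, and by -325 to 204 bp with 1 library left out (without IMR-32 replicate 2 and 1), including 24.5 and 45.0 bp without DMSO replicates 1 and 2. The cause of these changes was not tested.

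Leaving out each library in turn, both proteins in DMSO were at 1 to 2 members (1 without WDR5 replicate 1 or 3), and 2 or more N-MYC peaks with the compound at 1 to 5. Under the compound, 0 to 2 members were apart by percentile (AMD1 and SRM without DMSO replicate 2, ODC1 without DMSO replicate 3), 0 to 1 by summit and 1 to 3 sites. Between the lines, 0 to 2 were apart by N-MYC percentile (AMD1 and AZIN1 without DMSO replicate 2), 1 to 2 by summit, 0 to 1 by WDR5 percentile (SMOX without DMSO replicate 3), and 2 to 4 sites. Leaving out an IMR-32 library gives no count over at least 2 libraries. No share over all genes or sites is given for these reduced sets, where fewer libraries make non-overlap easier. Their counts are therefore not read as particular to the members. Distances for sites and the added alternatives were chosen after seeing the data.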
